A study of Mus musculus with 22 samples.

Results

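The genes described here are imprinted genes that lie outside the Prader-Willi interval, and they were taken by name from a list of 39 genes. Of these, 38 were found in both count tables (55409 genes in the PWS-cr table and 55406 in the PWS-IC table), and 37 passed the filter on low counts and were tested. *Nespas* was not found under that name and is not analysed here. *Phlda2*, a growth-restraining gene of placenta, held 0 to 7 counts per library in the PWS-cr series and 1 to 6 in the PWS-IC series and was not tested. The 38 genes sit on 11 chromosomes, with 11 on chromosome 7, which also carries the mouse Prader-Willi interval, 5 on chromosome 2, 5 on chromosome 12 and 4 on chromosome 11.

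An imprinted gene is transcribed mainly from the copy inherited from 1 parent, because the gamete that carried the other copy laid down DNA methylation or other marks that silence it. Imprinted genes lie in clusters under shared control regions, and paternally expressed members often promote fetal growth while maternally expressed members often restrain it. In the brain many of them are expressed in neurons, and for some, such as *Grb10* and *Gnas*, the active parental copy differs between cell types. The readout here sums both parental copies, so it gives a gene's level and not which copy was active.

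RNA was measured by polyadenylated, unstranded RNA sequencing of whole mouse brain at postnatal day 0, in 2 models of Prader-Willi syndrome and their wild-type (WT) littermates. PWS-cr pups carried a paternally inherited deletion of *Snord116* and *Ipw*, the non-coding RNAs of the critical interval. PWS-IC pups carried a paternally inherited deletion of the imprinting centre (m+/p-), which silences the paternally expressed genes of the interval. Both deletions were heterozygous and present in every tissue, and WT pups carried neither. The labels of these pups give no strain. The behavioural PWS-cr cohort came from C57BL/6-bred sires and CD1 dams. Counts were used for 6 PWS-cr and 5 WT pups from 4 litters and for 4 PWS-IC and 5 WT pups from 2 litters, 20 of 22 labelled libraries. For litter 2 of the PWS-cr series counts were used for a PWS-cr pup alone, which adds nothing to the genotype term, and its labelled WT littermate is not analysed here. These comparisons ask whether loss of paternal Prader-Willi genes is accompanied by a change in RNA from other imprinted loci.

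Total counts per library ranged from 45798407 to 55563780 in the PWS-cr series and from 49063929 to 62103143 in the PWS-IC series. The PWS-IC library 1_3_IC held 18116 counts of *Snrpn*, a gene of the interval silenced by the deletion, against 255 to 425 in the other 3 PWS-IC libraries. The WT library 1_7_IC held 343 counts, against 12281 to 16556 in the other 4 WT libraries. Both also went against their labelled sex by *Xist* and *Ddx3y*. Each PWS-IC comparison is therefore given for the 9 libraries as labelled and for the 7 without this pair. In those 7 all 3 PWS-IC pups are female, while 1 WT pup is female and 3 are male, so genotype and sex can hardly be told apart. In whole-brain RNA, fewer cells of a type and less RNA per cell cannot be told apart.

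RefSeq (GRCm38.p6) gave 300-base promoter windows, from 250 bases before to 50 after an annotated start, for 29 of the genes, 42 windows in all. The letters TGCCGC, which the imprint-maintaining factor ZFP57 reads when they are methylated, were searched on both strands and stood in 13 of the 42 windows (31.0%) against 11.6% of all 32851 windows in the table. The letters GGGGCCCC, read by the zinc-finger factor PLAGL1, stood in 3 of 42 (7.1%), those of *Peg3*, *Usp29* and *Rasgrf1*, against 1.1% of all windows. The *Peg3* and *Usp29* windows share 1 such place, so the 3 windows hold 2 places. Neither set of letters can overlap the other. The median number of CpG dinucleotides was 16.5 per window here and 7 over all windows, and TGCCGC itself contains 1. A match is a description of the window and not a measured binding site. The 4 windows printed here run 5′ to 3′ on its gene's strand with the matches in capitals. They belong to genes whose values are described further on: *Peg3*, whose start region faces that of *Usp29*, *Nap1l5*, which moved with genes of other clusters, *Zdbf2*, among the members with the lowest p in PWS-IC pups, and *Meg3*, the most abundant non-coding member.
Peg3, chr7:6730370-6730669, minus strand: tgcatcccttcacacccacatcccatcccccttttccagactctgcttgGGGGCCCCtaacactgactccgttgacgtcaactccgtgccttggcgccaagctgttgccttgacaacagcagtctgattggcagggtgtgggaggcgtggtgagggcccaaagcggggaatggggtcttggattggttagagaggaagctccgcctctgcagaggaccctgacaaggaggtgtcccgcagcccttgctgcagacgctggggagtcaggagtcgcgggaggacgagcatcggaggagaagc
Nap1l5, chr6:58907077-58907376, minus strand: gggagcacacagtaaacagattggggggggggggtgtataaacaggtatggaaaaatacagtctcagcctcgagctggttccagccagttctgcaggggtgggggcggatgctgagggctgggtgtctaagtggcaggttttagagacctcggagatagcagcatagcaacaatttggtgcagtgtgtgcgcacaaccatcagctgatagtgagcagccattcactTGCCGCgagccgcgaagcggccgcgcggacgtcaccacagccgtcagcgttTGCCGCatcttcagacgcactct
Zdbf2, chr1:63200108-63200407, plus strand: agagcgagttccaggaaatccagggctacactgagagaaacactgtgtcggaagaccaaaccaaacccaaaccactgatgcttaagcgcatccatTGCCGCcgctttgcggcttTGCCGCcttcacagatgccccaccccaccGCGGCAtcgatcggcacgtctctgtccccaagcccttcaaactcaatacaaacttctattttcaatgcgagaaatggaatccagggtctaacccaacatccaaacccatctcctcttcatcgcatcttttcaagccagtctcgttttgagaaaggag
Meg3, chr12:109540746-109541045, plus strand: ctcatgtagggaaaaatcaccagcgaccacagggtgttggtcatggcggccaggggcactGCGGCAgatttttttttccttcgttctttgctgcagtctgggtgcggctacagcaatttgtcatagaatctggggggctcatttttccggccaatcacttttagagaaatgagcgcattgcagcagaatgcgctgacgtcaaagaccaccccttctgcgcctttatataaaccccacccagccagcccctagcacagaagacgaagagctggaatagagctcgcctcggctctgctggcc
The *Peg3* window holds the GGGGCCCC match, and 263 of its bases (chr7:6730370-6730632) are also in the window of *Usp29*, which is transcribed the other way. The *Zdbf2* window, at the upstream start of that gene, holds TGCCGC or its reverse complement at 3 places, the *Nap1l5* window at 2 and the *Meg3* window at 1.

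Levels between genes were compared in the deposited TPM (the transcript share of a library, scaled by gene length). In the 5 WT pups of the PWS-cr series the median TPM spanned from 2979 for *Nnat*, a small membrane proteolipid of developing neurons, to 0.137 for *Phlda2*. *Nnat* ranged from 2923 to 3106 TPM, and *Meg3*, a maternally expressed long non-coding RNA, from 1181 to 1593. *Nap1l5*, a nucleosome assembly protein relative, *Peg13*, a non-coding RNA within *Trappc9*, *Inpp5f*, an inositol phosphatase, and *Blcap* had medians between 207 and 439 TPM. *Nnat* was above every *Meg3* value, and *Meg3* was above the highest *Nap1l5* value of 649. Among the lower members were *Igf2*, the fetal growth factor, at 11.6 TPM, *Rtl1*, a retrotransposon-derived gene, at 10.2, *Ddc*, the decarboxylase of dopamine and serotonin synthesis, at 6.58, and *Airn*, the long non-coding RNA that silences *Igf2r* in cis, at 2.19. Of the 38 genes, 30 had a median of at least 10 TPM in these WT pups and 28 in the WT pups of the PWS-IC series, where *Nnat* stood at 2865, *Meg3* at 1100 and *H19* at 256.

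**Figure D1:**
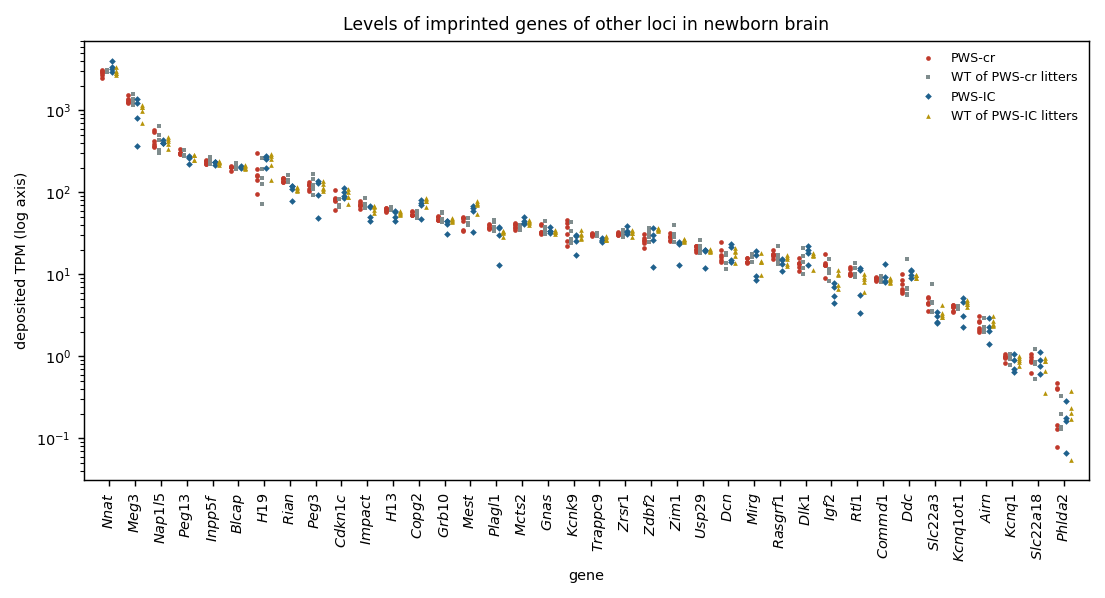
Deposited TPM on a log axis for each of the 38 genes in every library, ordered by the median in the WT pups of the PWS-cr series, with the 4 groups in their own colours and values of 0 not drawn. Levels run from *Nnat* at 2979 TPM to *Phlda2* at 0.137.

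*H19*, a maternally expressed RNA of fetal and mesodermal tissue, varied most between pups of the PWS-cr series, from 72.6 to 260 TPM among the WT pups. Its SD was 0.583 on the log2 CPM scale, where CPM is the count scaled to a common library total by TMM. *Trappc9*, a trafficking protein gene, varied least, with an SD of 0.0588. The median SD of the members was 0.144, against 0.157 for all tested genes and 0.0708 for the 3766 genes at or above the members' median level. In the PWS-IC series the members' median SD was 0.236, against 0.270 for all tested genes and 0.165 for the 3864 at or above that level, and it ran from 0.0773 for *Rian* to 0.506 for *Slc22a18*.

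In PWS-cr brains none of the 37 imprinted genes passed the test for a change. In edgeR, fitted with litter and genotype over 22172 genes, 0 of 37 passed the adjusted test (called means a p under 0.05 after Benjamini-Hochberg adjustment over all genes), and 0 had an unadjusted p under 0.05, a number that ran from 0 to 5 with single pups left out. DESeq2 also called 0. Over all genes 3 were called, 0.0135%, and 2.07% had an unadjusted p under 0.05. For 31 of the 37 the 95% interval of the fold lay within 1.5-fold in either direction. The 6 for which a change of 1.5-fold lay inside the interval were *Ddc*, *H19*, *Igf2*, *Kcnk9*, *Nap1l5* and *Slc22a18*. The median log2 fold change of PWS-cr over WT was 0.037, with 28 positive and 9 negative, beside 0.003 for all genes. By parental origin the medians were 0.041 for the 18 paternally expressed genes, 0.034 for the 15 maternally expressed and 0.024 for 4 whose active copy depends on the isoform or tissue. Parental origin is the textbook assignment and was not measured in this tissue. For the 10 tested members on chromosome 7 the median was 0.062.

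No gene of the *Dlk1-Dio3* cluster on chromosome 12 passed the test in PWS-cr pups. *Dlk1* encodes a paternally expressed membrane ligand that keeps precursor cells undifferentiated, and its levels were 15.5, 18.9 and 22.8 CPM (lowest, median and highest of 6) in PWS-cr and 14.2, 16.7, 22.9, 20.3 and 29.5 CPM in the WT pups. *Meg3* had a lowest, median and highest value of 5537, 5900 and 7098 CPM in PWS-cr and values of 5239, 5757, 6123, 6289 and 7183 CPM in WT. The groups overlapped throughout for both genes. The log2 fold change of *Meg3* was 0.03 (SE 0.091), and that of *Rian*, the non-coding RNA downstream of it, was 0.01. *Rtl1* ranged from 15.3 to 19.9 CPM in PWS-cr and from 14.6 to 21.7 CPM in WT. Its reads cannot be told apart from those of the maternal antisense transcript, since the libraries were unstranded.

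The 3 members with the lowest p-values in PWS-cr pups were *Airn*, *H13* and *Nnat*. *Airn* stood at 1.74, 2.18 and 2.74 CPM (lowest, median and highest of 6) in PWS-cr and at 1.73, 2.07, 2.54, 1.87 and 1.96 CPM in WT. The log2 difference was 0.27 (SE 0.126, 95% interval -0.006 to 0.55, edgeR adjusted p = 0.9999), and within litters 1, 3 and 4 it was 0.21, 0.25 and 0.35. *H13*, a signal peptide peptidase, stood at 131, 137 and 140 CPM in PWS-cr and at 145, 147, 144, 147 and 134 CPM in WT, a log2 difference of -0.08 (SE 0.039). *Nnat* stood at 1129, 1308 and 1398 CPM in PWS-cr and at 1393, 1335, 1328, 1378 and 1388 CPM in WT, a log2 difference of -0.11 (SE 0.052). *H13* was lower in PWS-cr in each of the 3 litters with both genotypes, while *Nnat* was lower in litters 1 and 3 by 0.11 and 0.24 on the log2 scale and higher by 0.02 in litter 4. The WT pup 4_2_Cr was the lone WT pup inside the PWS-cr range of *H13*. In all, 7 members were higher in PWS-cr in all 3 litters (*Airn*, *Cdkn1c*, *H19*, *Kcnq1*, *Nap1l5*, *Rasgrf1* and *Trappc9*) and *H13* was the lone member lower in all 3. The share of all genes with the same sign in all 3 litters was not computed, so these counts have no background. Litter 1 held 1 WT pup, and litters 3 and 4 each held 1 PWS-cr pup. No member separated the groups completely, and 0.171% of all 22172 genes did.

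**Figure D2:**
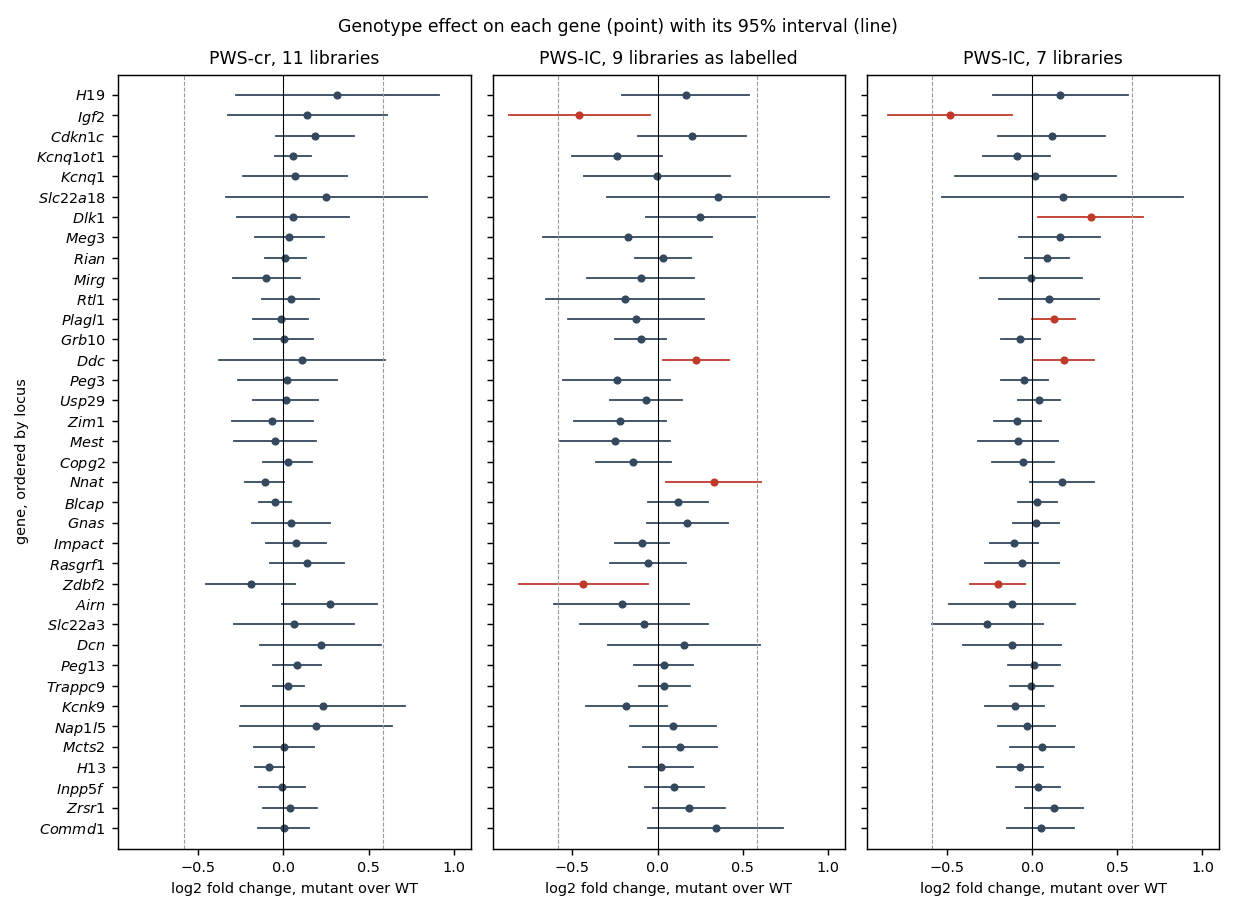
Log2 fold change of mutant over WT with its 95% interval from edgeR for the 37 tested genes, in 3 panels (PWS-cr, PWS-IC as labelled with 9 libraries, PWS-IC with 7), with dashed lines at 1.5-fold and red for an unadjusted p under 0.05. None is red in PWS-cr, 4 are in the 9 PWS-IC libraries and 5 in the 7.

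In PWS-IC brains no member passed the adjusted test either. Among the 9 libraries as labelled edgeR called 0 of 37 and DESeq2 0 of 37, while 4 members had an unadjusted p under 0.05. Over all 22367 genes 0 were called, 0%, and 8.23% had an unadjusted p under 0.05. *Snrpn* too was not called in this fit, and 1_3_IC and 1_7_IC go against their labels by it. So 0 calls and narrow intervals in these 9 libraries cannot show that a member was unchanged. Among the 7 libraries edgeR and DESeq2 called 0 of 37, and 5 members had an unadjusted p under 0.05. Over all 21913 genes 53 were called, 0.242%, and 12.8% had an unadjusted p under 0.05. The members' median log2 fold change was -0.006 with 9 libraries and 0.011 with 7, beside 0.004 and 0.001 for all genes. Paternally expressed members had medians of -0.079 and -0.010 in these fits, and maternally expressed members 0.018 and -0.004. The 95% interval lay within 1.5-fold for 28 members with 9 libraries and for 33 with 7, where *Dlk1*, *Igf2*, *Slc22a18* and *Slc22a3* were the exceptions.

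*Igf2* had the lowest adjusted p of the members in the 7 libraries. It stood at 12.7 CPM in the PWS-IC pup of litter 1 and at 10.2 and 8.04 CPM in those of litter 4. In WT it stood at 15.3 and 11.2 CPM in litter 1 and at 14.5 and 16.8 CPM in litter 4. The PWS-IC pups were below WT in litter 4, while in litter 1 the PWS-IC pup lay between both WT pups. The means were 10.3 ± 2.35 CPM (SD, n = 3) in PWS-IC and 14.5 ± 2.36 CPM (SD, n = 4) in WT, a fold of 0.717 (95% interval 0.557 to 0.923, edgeR adjusted p = 0.302). On the log2 scale the difference was -0.48 (SE 0.165), with -0.04 in litter 1 and -0.79 in litter 4. With all 9 libraries it was -0.46 (SE 0.187, adjusted p = 0.565), with 8.56 CPM in 1_3_IC and 10.0 CPM in 1_7_IC.

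*Zdbf2*, a paternally expressed zinc-finger gene of chromosome 1 that acts in hypothalamic feeding circuits, stood at 94.2 CPM in the PWS-IC pup of litter 1 and at 118 and 98.2 CPM in those of litter 4. The WT values were 120, 113, 122 and 117 CPM, so 1 PWS-IC pup lay inside the WT range. The log2 difference was -0.20 (SE 0.073, edgeR adjusted p = 0.318), with -0.31 in litter 1 and -0.15 in litter 4. In 1_3_IC *Zdbf2* was 51.9 CPM, the lowest value of the series, and with all 9 libraries the difference was -0.44 (SE 0.171, adjusted p = 0.565).

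Among the 7 libraries *Ddc* values were higher in every PWS-IC pup than in every WT pup. They stood at 12.6, 12.7 and 13.1 CPM in the 3 PWS-IC pups and at 10.8, 11.6, 11.2 and 11.3 CPM in the 4 WT pups, with 13.6 CPM in 1_3_IC and 10.6 CPM in 1_7_IC. The labelled groups of 9 did not overlap either, but 1_3_IC, the highest value, held *Snrpn* at the WT level, and 1_7_IC, the lowest, held it at the PWS-IC level. The log2 difference was 0.19 (SE 0.081, edgeR adjusted p = 0.372) with 7 libraries and 0.22 (SE 0.088, adjusted p = 0.565) with 9. *Ddc* was the lone member without overlap in the 9 libraries as labelled, where 2.29% of all genes had none. In the 7 libraries *Rian* (higher) and *Grb10* (lower), which encodes a growth-restraining adaptor of the insulin receptor, also had none, 3 members in all, and 10.3% of all genes had none. The log2 differences of this pair were 0.09 (SE 0.059) and -0.07 (SE 0.052), with adjusted p of 0.529 and 0.597 in edgeR.

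*Dlk1* stood at 32.3, 26.3 and 31.7 CPM in the 3 PWS-IC pups and at 17.3, 27.5, 25.0 and 25.3 CPM in the 4 WT pups. The log2 difference was 0.34 (SE 0.140, edgeR adjusted p = 0.356), and the low WT value belongs to 1_1_IC, the lone female WT pup. With single pups left out the difference ran from 0.21 to 0.44. *Plagl1*, a zinc-finger factor expressed in fetal tissues, stood at 68.4, 73.4 and 75.4 CPM in PWS-IC and at 59.9, 66.1, 67.6 and 69.1 CPM in WT, a log2 difference of 0.13 (SE 0.057, adjusted p = 0.386). For *Plagl1* the order turned with the libraries: 1_3_IC held 33.8 CPM, and the difference with all 9 was -0.13. *Nnat* stood at 1787, 1386 and 1514 CPM in PWS-IC and at 1322, 1664, 1344 and 1352 CPM in WT, a log2 difference of 0.17 (SE 0.086, adjusted p = 0.418). With 1_3_IC, at 2475 CPM, and 1_7_IC, at 1491 CPM, it was 0.33 (SE 0.125, adjusted p = 0.565). *Peg3*, a paternally expressed zinc-finger gene linked to growth and maternal care, stood at 364, 480 and 451 CPM in PWS-IC and at 410, 379, 452 and 485 CPM in WT, overlapping fully, with 223 CPM in 1_3_IC.

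**Figure D3:**
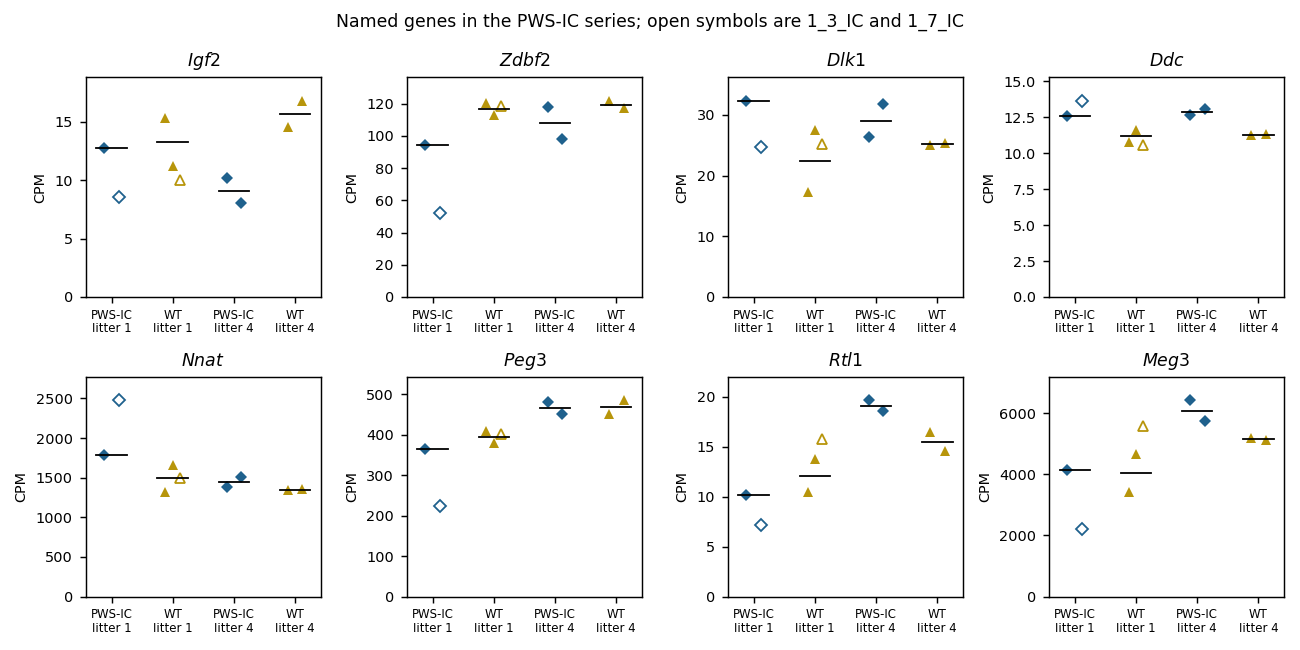
TMM-scaled CPM of *Igf2*, *Zdbf2*, *Dlk1*, *Ddc*, *Nnat*, *Peg3*, *Rtl1* and *Meg3* in the 9 PWS-IC series libraries by litter and group, with 1_3_IC and 1_7_IC as open symbols and bars at the mean of the filled ones. *Ddc* separates the groups (12.6 to 13.1 against 10.8 to 11.6 CPM among filled symbols), while filled *Rtl1* values are higher in litter 4 (14.6 to 19.7 CPM) than in litter 1 (10.2 to 13.8 CPM).

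Markers of other cell types were measured beside these values. The summed CPM of 15 tested meninges and fibroblast markers of 16 listed ran from 455 to 712 in PWS-IC and from 478 to 630 in WT pups of that series, as labelled. The sum of all 15 choroid plexus markers was 596, 693 and 724 in the 3 PWS-IC pups of the 7 libraries and 692, 732, 779 and 918 in the 4 WT pups, with 1463 in 1_3_IC and 706 in 1_7_IC. In the 7 libraries the median log2 difference of this list was -0.17, with 2 of 15 markers positive and 0 called. The sum of 8 tested erythroid markers of 11 was 440, 568 and 674 in PWS-IC and 138, 257, 264 and 328 in WT, without overlap, with 391.6 in 1_3_IC and 1013 in 1_7_IC. In the fit of 7 libraries 7 erythroid markers were tested, all positive, with a median of 0.93 and 1 called. *Igf2* correlated with the choroid plexus list at r = 0.40 over 9 libraries, which did not pass the adjusted permutation test, and at 0.89 without 1_3_IC. In the PWS-cr series the pup with the highest *Igf2*, 3_5_Cr at 25.2 CPM, had the lowest choroid plexus sum, 352 CPM. In the 7 libraries *Igf2* and the choroid plexus list were both lower in PWS-IC pups on average. In the 9 as labelled the choroid plexus list had a median log2 difference of 0.023, with 8 of 15 markers positive. The part of these cell types in the differences of *Igf2*, *Ddc* and the other members was not tested.

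The genotype effect was also compared between the models, in a fit over the PWS-cr series and the 7 PWS-IC libraries. No member passed the test of the difference: edgeR called 0 of 37 and 1 had an unadjusted p under 0.05, while 0.182% of all 23574 genes were called and 8.16% had an unadjusted p under 0.05. That member was *Nnat*, at -0.11 in PWS-cr and 0.17 in PWS-IC, a difference of 0.28 (SE 0.103, adjusted p = 0.526). For *Igf2* the difference was -0.62 (SE 0.312, adjusted p = 0.637), and for *Zdbf2*, at -0.19 in PWS-cr and -0.20 in PWS-IC, it was -0.01. The interval of the difference lay within 1.5-fold for 27 of 37 members.

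In the PWS-IC series 1 member passed the test between litters. In the 7 libraries, *Peg3* was higher in litter 4 than in litter 1 by 0.29 (log2, SE 0.063, edgeR adjusted p = 0.0488), the lone member called, while 561 of 21913 genes were called, 2.56%. A further 9 had an unadjusted p under 0.05, 10 of 37 in all, against 26.2% of all genes. The *Peg3* call changed with single pups: without any 1 of 6 of them no member was called, without the WT pup 1_5_IC 9 were, and with all 9 libraries 0 were. In the *Dlk1-Dio3* cluster, *Rtl1* stood at 10.5, 10.2 and 13.8 CPM in litter 1 and at 16.4, 19.7, 18.5 and 14.6 CPM in litter 4, a log2 difference of 0.57 (adjusted p = 0.0502). *Mirg*, the cluster's microRNA host RNA, differed by 0.56 (adjusted p = 0.0551) and *Meg3* by 0.43 (adjusted p = 0.0562). The litters did not overlap for *Rtl1*, and for *Mirg* they met narrowly, at 19.5, 19.7 and 27.7 CPM in litter 1 and 34.6, 35.9, 32.5 and 27.5 CPM in litter 4. *Rian* and *Dlk1*, of the same cluster, differed by 0.04 each. In the PWS-cr series no member was called between litters (0 of 37 in edgeR, 5 at an unadjusted p under 0.05), where 0.0226% of all genes were called and 6.45% had an unadjusted p under 0.05. *Rtl1* had the lowest unadjusted p there.

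**Figure D4:**
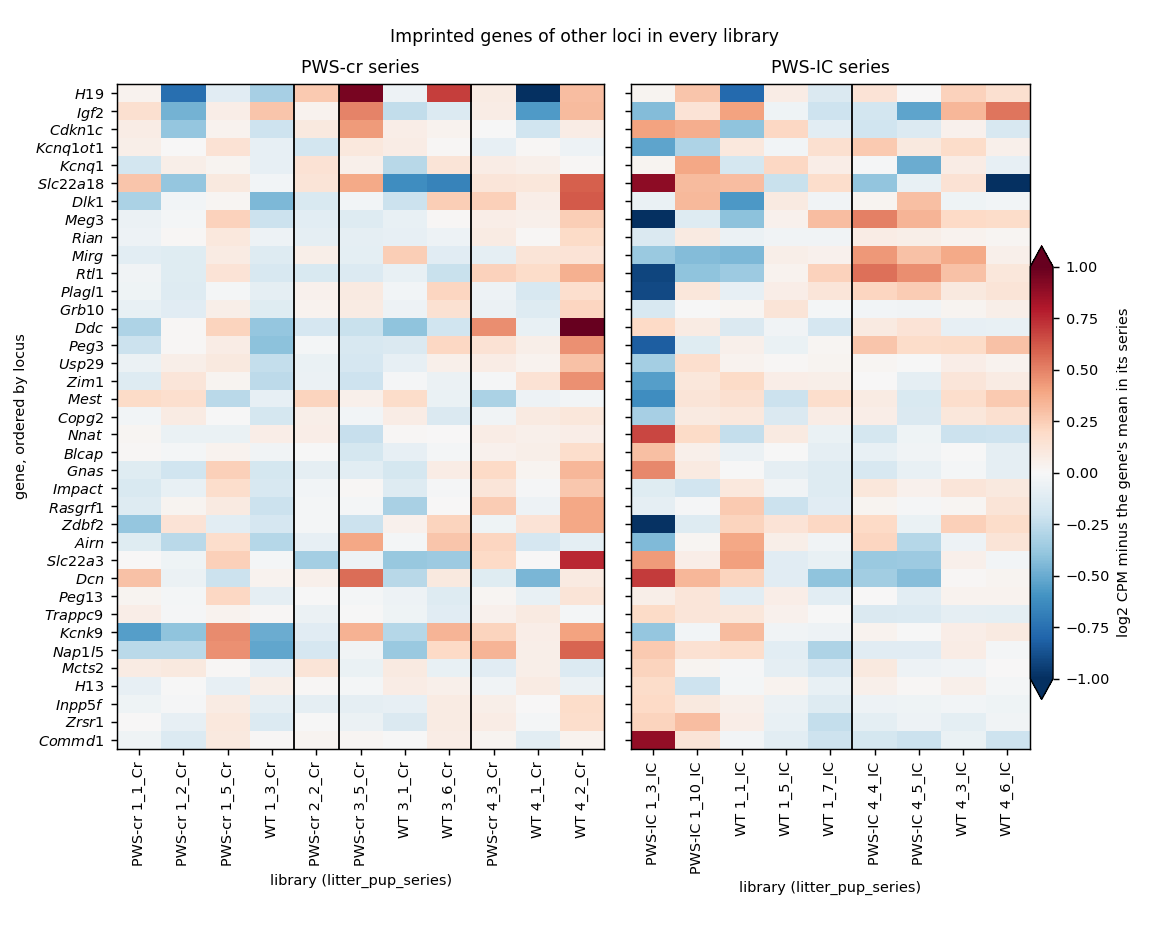
Heat map of log2 CPM minus the gene's mean in its series for the 37 tested genes in each library, with black lines between litters. 4_2_Cr stands out as high for 20 genes, and 1_3_IC holds the lowest value of 14 genes and the highest of 14.

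Single pups held many of the extremes. The WT pup 4_2_Cr had the highest value of the PWS-cr series for 20 of the 37 members, among them *Peg3*, *Meg3*, *Dlk1*, *Ddc*, *Nap1l5* and *Zdbf2*, and for 15.9% of all tested genes. The WT pup 1_3_Cr had the lowest value for 11 of 37 and for 8.52% of all genes. 1_3_IC was lowest for 14 and highest for 14 of 37, against 33.1% and 34.2% of all genes, near the background. In 1_3_IC the summed CPM of the tested microglia markers was 161, against 75.2 to 118 in the other libraries of its series, and that of the caudal hindbrain and spinal cord markers was 25.4, the highest of the series, with 3 of 10 markers tested. In 4_2_Cr the summed CPM of muscle and cartilage markers was 74.3, against 31.4 to 41.1 in the other WT pups of its series, and those of the meninges and choroid plexus lists, 856 and 813, were the highest of these WT pups. The part of these tissues in the members' values in both pups was not tested.

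Within clusters, neighbouring genes moved together in some cases. For 32 tested pairs in each series (22 of 35 listed pairs lie at the same locus), permutation tests of r and rho gave 128 p-values in 1 family, and 10 pairs passed a Benjamini-Hochberg adjusted p under 0.05 for r. In the PWS-cr series *Peg3* and *Usp29* correlated at r = 0.94 over 11 libraries (permutation test, adjusted p = 0.0067, rho 0.86). Without the 2 libraries farthest from the median of the first-named gene r was 0.82. *Meg3* and *Rian* correlated at r = 0.89 (adjusted p = 0.0081, rho 0.89), at 0.72 without the 2. *Plagl1* and *H19*, a reported target of PLAGL1, correlated at r = 0.86 (adjusted p = 0.0203, rho 0.88), at 0.96 without the 2. The pups with the highest and the lowest *H19*, 3_5_Cr and 4_1_Cr, were not among those left out. *Peg3* with *Zim1* (0.83, rho 0.71) and *Dlk1* with *Meg3* (0.78, rho 0.83) fell to 0.48 each without the 2. By rho *Dlk1* with *Meg3* passed (permutation test, adjusted p = 0.0358) and *Peg3* with *Zim1* did not (permutation test, adjusted p = 0.0957). In the PWS-IC series *Mest*, a hydrolase gene, and *Copg2*, which overlaps it on the opposite strand by 912 exon bases, correlated at r = 0.99 over 9 libraries (exact permutation test, adjusted p = 0.0067, rho 0.88), at 0.98 without the 2. Reads of this pair cannot be told apart where they overlap. *Meg3* and *Mirg* correlated at 0.80 (exact permutation test, adjusted p = 0.0390), at 0.84 without the 2 and at 0.65 with litter means removed. By rho this pair did not pass (exact permutation test, adjusted p = 0.0885), and its r in the PWS-cr series was 0.39. *Nnat* with *Peg3* (-0.95), *Nnat* with *Blcap* (0.93) and *Cdkn1c* with *Kcnq1ot1* (-0.81) fell in size to -0.61, 0.36 and -0.38.

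No pair passed in both series. *Peg3* and *Usp29* gave r = 0.76 in the PWS-IC series and -0.50 there without 1_3_IC, *Meg3* and *Rian* 0.76 and 0.43, *Mest* and *Copg2* 0.35 in the PWS-cr series, and *Plagl1* and *H19* 0.14 in the PWS-IC series. With litter means removed, r of *Peg3* and *Usp29* in the PWS-cr series was 0.97. Permutations within litters number 864 there, with a smallest p of 0.00116, so a single pair could not pass the adjustment over 128 p-values. *H19* and *Igf2*, neighbours under 1 control region that act from opposite parental copies, gave r = 0.71 in the PWS-cr series (permutation test, adjusted p = 0.0885) and -0.13 in the PWS-IC series.

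**Figure D5:**
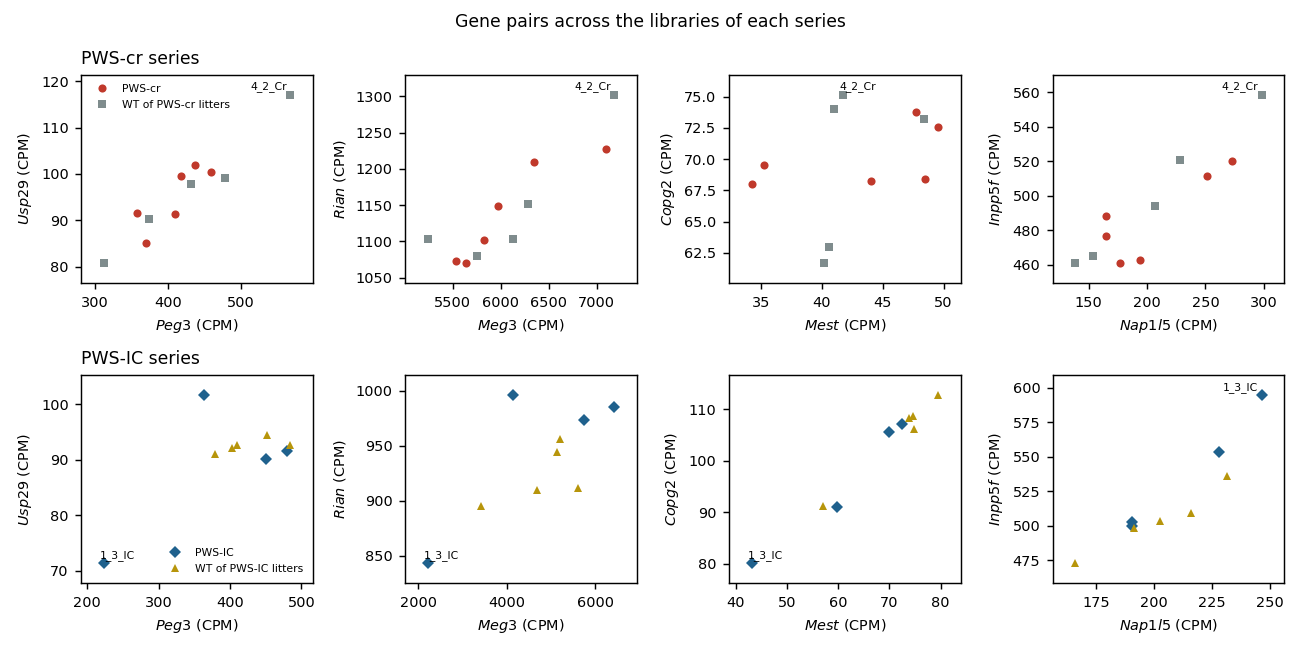
CPM of 4 gene pairs (*Peg3* and *Usp29*, *Meg3* and *Rian*, *Mest* and *Copg2*, *Nap1l5* and *Inpp5f*) plotted against each other, 1 point per library, for both series, with 1_3_IC and 4_2_Cr labelled. *Peg3* and *Usp29* follow each other in the PWS-cr series (r = 0.94), and in the PWS-IC series r is 0.76 and turns to -0.50 without 1_3_IC.

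Across all 666 pairs of members, as a description, 6 (0.901%) had r of at least 0.8 in both series, against 0.134% of all pairs of tested genes. Without 1_3_IC and 4_2_Cr the same count was 6 (0.901%), against 0.0733%. Libraries, their depth and their cell makeup are shared by all of these points. In the PWS-cr series 3766 of 22172 tested genes stood at or above the members' median level. No background of genes at a similar level was computed for pairs, so the part of level in this excess was not tested. Of the 6 pairs, *Usp29* and *Zim1* (0.91 and 0.93, and 0.48 in the PWS-IC series without 1_3_IC) are neighbours, and the others joined genes of different clusters. *Nap1l5* and *Inpp5f*, both paternally expressed in brain, gave 0.89 and 0.92, *Gnas* and *Inpp5f* 0.90 and 0.92, and *Inpp5f* and *Zrsr1*, a splicing factor gene inside *Commd1*, 0.88 and 0.91. Without 4_2_Cr and 1_3_IC these 3 pairs still gave between 0.81 and 0.95. *Nap1l5* with *Zrsr1* gave 0.93 and 0.85, and *Meg3* with *Peg3* 0.84 and 0.89, the latter falling to 0.59 without 1_3_IC. *Nap1l5* stood at 139 to 298 CPM across the PWS-cr series, with 4_2_Cr highest, 1_5_Cr next at 272 and 1_3_Cr lowest. For the 29 pairs at the same locus the median r was 0.40 in the PWS-cr series and 0.48 in the PWS-IC series, and for the 637 pairs at different loci 0.23 and -0.02. Without 1_3_IC the PWS-IC medians were 0.30 and 0.08, and 0 of the 29 pairs had r of at least 0.8 in both series.

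Some members moved with lists of cell type markers. Over 10 marker lists and 37 members in both series (740 correlations, r and rho, 1480 p-values), 3 passed the adjusted permutation test. *Dcn*, a proteoglycan of connective tissue, followed the meninges and fibroblast list at r = 0.95 in the PWS-IC series (exact permutation test, adjusted p = 0.0245) and at 0.92 in the PWS-cr series (adjusted p = 0.0555, permutation test). *Slc22a3*, an organic cation transporter, followed the microglia list at 0.88 (exact permutation test, adjusted p = 0.0245) and *Mirg* the neuron list at -0.92 (exact permutation test, adjusted p = 0.0489), both in the PWS-IC series. *H19* and *Igf2* correlated with the meninges and fibroblast list in the PWS-cr series at 0.89 and 0.86 (permutation test, adjusted p = 0.0555 each), and at 0.04 and 0.43 in the PWS-IC series. The summed list ran from 542 to 1044 CPM in PWS-cr and from 442 to 856 CPM in the WT pups of that series. In the PWS-cr pup with the highest *H19* (186 CPM), 3_5_Cr, *Igf2* (25.2 CPM) and *Dcn* (35.6 CPM) were also highest. In that pup the muscle and cartilage markers, 13 tested of 15, summed to 103 CPM, against 31.4 to 74.3 in the other pups, and the list's median log2 difference in PWS-cr was 0.75, with 11 of 13 positive and 0 called. The part of these cells in the levels of *H19*, *Igf2* and *Dcn* was not tested. With litter means removed r was 0.93 for *Dcn*, 0.84 for *Slc22a3* and -0.86 for *Mirg*. Without 1_3_IC the relation of *Dcn* still passed the adjusted test, and those of *Slc22a3* and *Mirg* did not.

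A list of 27 further imprinted genes held some from the members' own clusters, such as *Igf2r*, the target of *Airn*. Of these 27 genes, 24 were tested, among them *Igf2r*, and 0 were called in any of the genotype fits in edgeR. Their median log2 fold change was 0.035 in PWS-cr, 0.084 in the 9 PWS-IC libraries and -0.029 in the 7. Of 18 factors that set or keep imprints, 15 were tested and 0 were called in the genotype fits, with medians of -0.026, -0.12 and -0.008. Of the 15, 0 were positive in PWS-cr, 3 in the 9 PWS-IC libraries and 7 in the 7. The medians over all genes in these fits were 0.003, 0.004 and 0.001. The share of all genes that were positive was not computed, and whether these factors changed as a set was not tested. Between the litters of the 7 PWS-IC libraries 2 of these factors were called, where 2.56% of all genes were: *Tet3*, a demethylating dioxygenase, was higher in litter 4 by 0.29 (SE 0.059, adjusted p = 0.0480), and *Uhrf1*, which recruits the maintenance methyltransferase, had a log2 difference of -0.36 (SE 0.079, adjusted p = 0.0489). These litter calls are as unsteady as that of *Peg3*: over all genes 561 were called, 2 to 3150 with single pups left out and 9 with all 9 libraries.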

How the data were processed

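Polyadenylated RNA of whole brains was sequenced by the authors as paired, unstranded reads. They mapped the reads to mm10 with STAR, placed reads that map to several sites in random order, and counted them per gene with featureCounts. The deposited raw counts were used for every test and for CPM. The deposited TPM, scaled by the authors for gene length and library size, was used to compare levels between genes. The authors' DESeq2 columns (log2 fold changes, errors, p-values) and 40 further per-sample columns were not used.

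Each series had its own quasi-likelihood fit with litter and genotype terms after TMM scaling (edgeR 4.0.16, in R 4.3.3). A gene needed at least 10 counts in at least 4 libraries, and a call meant p under 0.05 after Benjamini-Hochberg adjustment over all genes tested. Log2 CPM used a prior count of 2. Litter was read from the sample titles. The models were compared in 1 fit over both series. DESeq2 1.42.0, other filters, scalings and library sets were alternatives, and those leaving out 1_3_IC or 4_2_Cr from correlations, and pups from the litter tests, were chosen after seeing the data. Correlations of log2 CPM were tested by permuting libraries in Python 3.11.15, exactly with 9 libraries and with 100000 resamples with 11. The edgeR genotype fit and the permutation test of correlations over libraries were tested on simulated data, and the other steps were not. Promoter windows are from RefSeq GRCm38.p6, and exon overlaps from GENCODE vM21.

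The members and all gene, pair and marker lists were chosen with earlier results of these data known. All members could be named. Values in every library were given for members called in a genotype fit or, failing that, those with the lowest unadjusted p and those whose groups do not overlap. Of the further imprinted genes and the imprint factors, counts and called genes are given. Values of other members, such as those of the *Dlk1-Dio3* cluster, were chosen after they were seen. P-values measure the spread between these pups.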

Additional observations from a re-analysis of the deposited data

Results flagged for a closer look

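In groups of 4 to 6 libraries, a pup was flagged where its gap to the nearest other pup was large for the group's range (Dixon's test at 95%). This flagged 14 of 148 groups of members, where chance flags about 1 in 20. Values are TMM-scaled CPM. Among PWS-cr pups, *Kcnq1* was lowest in 1_1_Cr (0.855, others 0.993 to 1.07), *Peg13* highest in 1_5_Cr (404, others 346 to 358) and *Blcap* lowest in 3_5_Cr (138, others 153 to 160). Among the WT pups of those litters, 4_2_Cr was highest for *Ddc* (17.3, others 6.22 to 7.80), *Slc22a3* (8.59, others 3.91 to 5.11) and *Peg13* (384, others 321 to 338) and lowest for *H13* (134, others 144 to 147), and 3_1_Cr was highest for *Mest* (48.4, others 40.2 to 41.7). Among PWS-IC pups, 1_3_IC, the library whose *Snrpn* goes against its label, was lowest for *Rian* (843, others 974 to 996), *Plagl1* (33.8, others 68.4 to 75.4) and *Kcnk9* (70.6, others 90.9 to 94.6). Among the WT pups of those litters, 1_1_IC was lowest for *Dlk1* (17.3, others 25.0 to 27.5) and highest for *Slc22a3* (5.11, others 3.57 to 3.98), and 1_5_IC was lowest for *Mest* (57.1, others 73.8 to 79.5).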

How the results depend on the processing

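In PWS-cr 0 members were called under all 18 alternatives, and in the difference between models under all 20. At an unadjusted p under 0.05 the PWS-cr count of 0 ran from 0 to 5 with single pups left out. In the 9 PWS-IC libraries 0 were called in 15 of 16, and without a filter on low counts 2 were (*Nnat*, adjusted p = 0.0274, and *Zdbf2*, 0.0140), when 471 genes were called in all. In the 7 libraries 0 were called in 12 of 14. Without a filter 2 were called (*Igf2*, adjusted p = 0.00109, and *Dlk1*, 0.00728) among 978 genes, and with labelled sex as a term 3 were (*Cdkn1c*, *Dlk1* and *H19*) among 174, a fit in which 1 female WT pup, 1_1_IC, carries the separation of sex and genotype. In that fit the log2 difference of *Grb10* was 0.00576, from -0.07. The log2 difference of *Dlk1* ran from 0.21 to 0.44 with single pups left out and was 0.90 with sex as a term. In DESeq2 the adjusted p of *Igf2* was 0.0873, and its log2 difference ran from -0.78 to -0.32 with single pups left out. Between litters of the PWS-IC series 1 member was called with 7 libraries and 0 with 9, and 0 to 9 with single pups left out (9 without 1_5_IC). Of 10 gene pairs, 0 passed with litter means removed, 1 without the 2 libraries farthest from the first gene's median (*Plagl1* and *H19*), 6 without 1_3_IC and 5 without 4_2_Cr. Of 3 relations to marker lists, that of *Dcn* passed without 1_3_IC, and those of *Slc22a3* and *Mirg* did not. With litter means removed 0 passed, and 0 without the 2 libraries farthest from the list's median, while r stayed between 0.83 and 0.94 in size. Those designs allow too few permutations (2880 within litters) for a lone marker relation to pass, as do the 864 within PWS-cr litters for a lone gene pair. Calls lost there cannot tell an unsteady relation from too few permutations. The limit does not hold for gene pairs of the PWS-IC series, nor for PWS-cr pairs without the 2 farthest libraries. A lone pair could pass in those cases. In the PWS-IC series *Mest* and *Copg2* lost their call, yet r was 0.98 with litter means removed and 0.98 without the 2 libraries. A pair call lost in those cases therefore need not mean an unsteady relation. The cause of these changes was not tested. No paired analysis was possible because the titles number pups within litters and match no mutant pup to a WT pup. Litter was a model term. Depth limits *Phlda2*, at 0 to 7 counts, and genotype effects under 1.5-fold lie inside the intervals of members with few counts or large spread.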
